A study of Mus musculus with 8 samples.

Results

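Genes of the cell cycle and of DNA replication were followed by RNA sequencing of mesenchymal cells that had been sorted from mouse large intestine. The members were 41 gene symbols chosen by name: 9 cyclins, kinases and a transcription factor of the G1 phase, 13 genes of S phase and replication, 13 genes of G2 and mitosis, and 6 inhibitors of cyclin-dependent kinases. All 41 were listed among the 24346 symbols of each table. Cells of C57BL/6 mice under treatment with 1 mM GABA and 20 mM taurine gave 3 libraries at 6 h and 3 at 0 h, together called the GABA-taurine libraries. Untreated cells gave 1 library of Foxl1cre; Cxcl12 flox/flox, in which Cre driven from Foxl1 deletes the chemokine gene Cxcl12. Untreated cells of Cxcl12 flox/flox, the control, also gave 1 library, and these 2 are called the genotype libraries. The shared gate kept podoplanin-positive, PDGFRα-high cells without Ly6C, CD45, EpCAM or CD31. The sources used here do not give how many sorted cells had active Cre, the ages of the mice, the strain of the genotype mice, any pooling or any culture before the treatment. Cells kept for 6 h without GABA and taurine are not among the libraries, so an effect of time and one of treatment cannot be told apart.

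A cell enters the cycle when D-type cyclins activate Cdk4 and Cdk6, which release E2F transcription factors from the retinoblastoma proteins. E2F factors then drive genes of DNA replication, among them the 6 subunits of the MCM2-7 helicase, which is loaded on replication origins before S phase. Genes of mitosis are switched on later, largely through CCAAT boxes and the cell cycle homology region (CHR), and the inhibitors of the Cdkn1 and Cdkn2 families hold the kinases back. Fibroblasts of the adult gut are mostly quiescent, with few dividing cells.

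All values are FPKM, which divides fragments by transcript length and by the mapped total, so levels of different genes are compared per length. Read numbers are not known. The most frequent step between low values placed the GABA-taurine libraries at 3.39 to 4.11 times the depth of the control library and the Foxl1cre; Cxcl12 flox/flox library at 1.25 times, if the authors applied no other scaling. The step held 7.57% to 10.6% of the low genes for the GABA-taurine libraries and 24.0% for the Foxl1cre; Cxcl12 flox/flox library. Between 14818 and 14974 genes were above 0 in the GABA-taurine libraries, against 20874 and 21006 in the genotype libraries. Of the gate's positive markers, Pdgfra ran from 152.3 to 227.3 FPKM in the GABA-taurine libraries and stood at 225.7 and 201.8 FPKM in the genotype libraries, and Pdpn was above 90 FPKM in all 8. Foxl1 was between 0.109 and 0.289 FPKM in the GABA-taurine libraries, against 11.6 FPKM in the Foxl1cre; Cxcl12 flox/flox library and 10.2 FPKM in the control library. The summed level of 15 leukocyte markers was 6.64 to 21.4 FPKM in the GABA-taurine libraries, against 665.3 and 560.4 FPKM in the genotype libraries. Fewer cells of a type and less RNA per cell cannot be told apart in such bulk samples.

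Promoters are shown to set S phase genes beside mitosis genes. With values known, the 3 S phase members furthest higher (Rrm2, Mcm6, Mcm3) and the 3 mitosis members furthest lower (Ccnb1, Birc5, Ccnb2) in the GABA-taurine libraries were searched, and 2 of each are printed. Tyms, the S phase member furthest lower, is not among them. RefSeq promoters (GRCm38.p6, 250 bases before to 50 after the start) matched 34 of the 41 members. Mcm6 and Mcm3, subunits of the helicase, and Ccnb1 and Ccnb2, the B-type cyclins of mitosis, are given 5′ to 3′ on the gene's strand. Their windows are chr1:128359656-128359955 (minus), chr1:20820263-20820562 (minus), chr13:100786437-100786736 (minus) and chr9:70421505-70421804 (minus). Capitals mark the motifs searched on both strands: the E2F words TTTCCCGC, TTTCGCGC, TTTGCCGC and TTTGGCGC, the CHR word TTTGAA and the CCAAT box CCAAT.
Mcm6: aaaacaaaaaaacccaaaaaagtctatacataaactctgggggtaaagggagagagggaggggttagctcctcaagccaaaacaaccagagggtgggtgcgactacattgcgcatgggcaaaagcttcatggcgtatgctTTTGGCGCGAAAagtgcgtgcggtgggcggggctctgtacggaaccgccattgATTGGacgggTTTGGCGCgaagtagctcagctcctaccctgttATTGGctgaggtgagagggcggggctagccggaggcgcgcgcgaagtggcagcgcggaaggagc
Mcm3: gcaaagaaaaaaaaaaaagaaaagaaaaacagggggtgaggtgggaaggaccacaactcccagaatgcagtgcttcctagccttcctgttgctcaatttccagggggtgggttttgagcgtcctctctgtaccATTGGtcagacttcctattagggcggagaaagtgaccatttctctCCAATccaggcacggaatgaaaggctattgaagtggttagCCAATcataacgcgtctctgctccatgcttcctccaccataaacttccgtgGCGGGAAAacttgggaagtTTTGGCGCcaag
Ccnb1: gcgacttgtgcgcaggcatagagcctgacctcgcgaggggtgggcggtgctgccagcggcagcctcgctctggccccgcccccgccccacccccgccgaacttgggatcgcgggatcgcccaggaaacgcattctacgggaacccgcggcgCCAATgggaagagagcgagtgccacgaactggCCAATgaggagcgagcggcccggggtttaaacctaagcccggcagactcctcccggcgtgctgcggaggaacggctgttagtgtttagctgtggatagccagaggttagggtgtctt
Ccnb2: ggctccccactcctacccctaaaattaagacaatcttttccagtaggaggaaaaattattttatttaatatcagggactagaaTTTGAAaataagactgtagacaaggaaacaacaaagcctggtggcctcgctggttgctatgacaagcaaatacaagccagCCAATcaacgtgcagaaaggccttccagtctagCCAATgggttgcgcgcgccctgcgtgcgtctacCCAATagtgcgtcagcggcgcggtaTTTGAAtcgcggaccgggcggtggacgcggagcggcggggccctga

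The Mcm6 promoter held 3 E2F matches, of which 2 overlap each other. The Mcm3 promoter held 2, which start 20 and 39 bases into the transcript. The Ccnb2 promoter held 2 CHR matches and 3 CCAAT boxes, one CHR match starting 5 bases into the transcript, and the Ccnb1 promoter held 2 CCAAT boxes and no CHR word. Of the other promoters searched, that of Rrm2 held 1 CCAAT box and that of Birc5 none of the motifs. Among the S phase members with a promoter, 6 of 12 held an E2F word, against 1 of 11 mitosis members and 2.6% of the 27025 genes in the table. The CHR word was in 8 of 11 mitosis promoters and 2 of 12 S phase promoters, against 20.2% of all genes. CCAAT was in 10 of 11 mitosis and 9 of 12 S phase promoters, against 41.1% of all genes. These matches describe the letters in the windows and do not locate bound sites.

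The first comparison sets the GABA-taurine libraries against the genotype libraries. The sets differ in mice and treatment and may have been normalized separately, and no test was run across them. Of the 6 GABA-taurine libraries, 3 were at 0 h of the treatment. A gene was counted as different where its mean FPKM + 1 was at least 2-fold apart and no library of one set overlapped the other, over genes whose 2 set means averaged 1 FPKM or more. By this rule 17.9% of 13182 genes were higher and 27.9% lower in the GABA-taurine libraries. Of the 41 members 36 passed the filter, 14 of them higher and 9 lower. A gene that passed the filter only through the set where it is high had to differ, so these counts are a description.

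The S phase members were higher in the GABA-taurine libraries, 10 of 13 by this rule, with Tyms the only one of the 13 that was lower. Of all genes in the filter 17.9% were higher and 27.9% lower. The median log2 difference of the S phase members was 1.70, against -0.10 over all genes in the filter. All 6 subunits of MCM2-7 were among the 10 that were higher. Their mean per library was 37.8 to 43.0 FPKM in the GABA-taurine libraries, against 7.92 FPKM in the Foxl1cre; Cxcl12 flox/flox library and 6.45 FPKM in the control library. By time, that mean was 40.0 to 43.0 FPKM at 0 h and 37.8 to 40.3 FPKM at 6 h. Mcm6 (chromosome 1, 128331590 to 128359664, GRCm38) had 54.9, 57.2 and 61.5 FPKM as lowest, median and highest of the 6 GABA-taurine libraries, against 10.4 FPKM in the Foxl1cre; Cxcl12 flox/flox library and 4.27 FPKM in the control library. Mcm3 had 45.3, 48.2 and 51.5 FPKM as lowest, median and highest, against 6.68 and 5.78 FPKM in the genotype libraries. Every GABA-taurine library lay above both genotype libraries for all 6 subunits. The folds of mean FPKM ran from 3.25 for Mcm7 to 8.4 for Mcm5, so the subunits were unequally apart.

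Other replication factors shared the direction. Cdt1, which loads the helicase on origins, had 14.8, 16.7 and 21.4 FPKM (lowest, median, highest) in the GABA-taurine libraries, against 3.6 and 2.0 FPKM in the genotype libraries. Rrm2, the regulated subunit of ribonucleotide reductase that supplies deoxyribonucleotides, had 34.6, 38.7 and 48.6 FPKM, against 4.58 and 4.53 FPKM, a log2 difference of 2.87, the largest among members higher in the GABA-taurine libraries. Its partner subunit Rrm1 was 2.2-fold and Cdc45, a cofactor of the active helicase, 2.78-fold higher in mean FPKM. Both were near the limit of 2-fold on the log2(FPKM + 1) scale: Cdc45 had a log2 difference of 0.83 without the Foxl1cre; Cxcl12 flox/flox library and 0.99 without replicate 1 of 6 h, and Rrm1 had 0.98 without the control library. Pcna, the sliding clamp of the polymerases, was high in both sets, from 74.0 to 86.2 FPKM in the GABA-taurine libraries, against 72.4 and 75.5 FPKM in the genotype libraries. Those ranges overlap, and so do those of Cdc6, the other loading factor, at 1.67 to 2.66 FPKM against 1.24 and 1.74 FPKM. Tyms (chromosome 5, 30058202 to 30073617), which makes thymidylate, went the other way, with 6.56, 7.07 and 7.18 FPKM in the GABA-taurine libraries, against 81.0 and 103.8 FPKM in the genotype libraries. Its level was 13.2-fold higher in the genotype libraries, where it was the highest S phase member. GENCODE lists processed pseudogenes named after Tyms, Pcna, Ccnd3, Ccnb1 and Ccnb2, and copies of any member under other names were not searched. How reads were shared between such copies is unknown, so the values of genes with copies are uncertain to that extent.

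**Figure D1:**
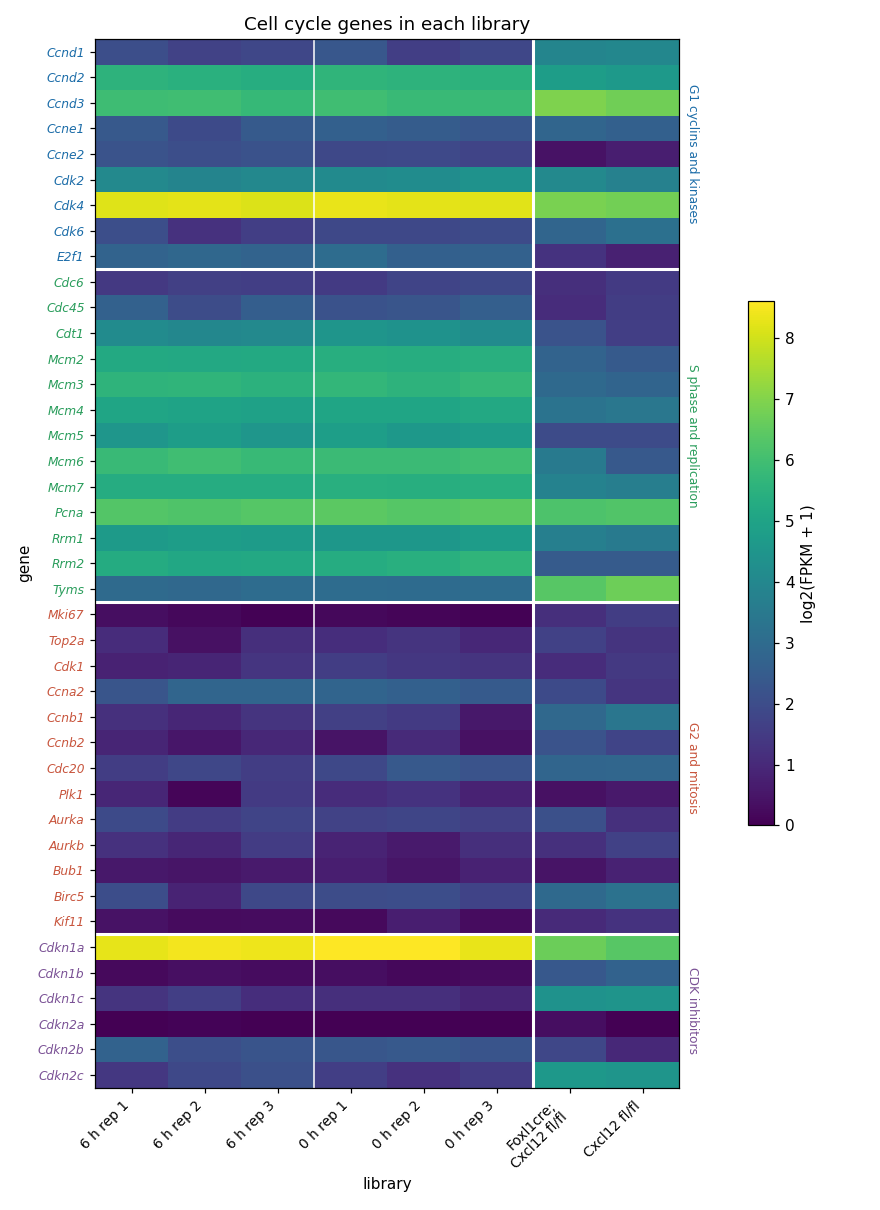
Levels of the 41 members in each library, as log2(FPKM + 1) on the colour scale, with genes in rows grouped by role and libraries in columns. The MCM2-7 rows are bright in the 6 GABA-taurine libraries (37.8 to 43.0 FPKM on average) and dark in the genotype libraries (7.92 and 6.45 FPKM), while most rows of mitosis are dark in all 8.

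Genes of G2 and mitosis did not share the S phase pattern. Of the 9 that passed the filter, 0 were higher and 3 lower in the GABA-taurine libraries, where 17.9% of all genes were higher and 27.9% lower. The median log2 difference was -0.10 over all genes in the filter and -0.45 for these mitosis members. That median was -0.74 without the Foxl1cre; Cxcl12 flox/flox library and -0.35 without replicate 2 of 6 h, the extremes with 1 library left out. It was -1.30 at a minimum of 5 FPKM and -0.72 with a pseudocount of 0.1. Ccnb1, the cyclin that brings cells into mitosis, had 0.476, 1.35 and 2.12 FPKM (lowest, median, highest), against 6.54 and 9.42 FPKM in the genotype libraries. Ccnb2 had 0.301, 0.65 and 1.03 FPKM, against 3.57 and 2.39 FPKM. Birc5, the survivin of the chromosomal passenger complex, had 0.827, 2.82 and 3.13 FPKM, against 6.71 and 8.46 FPKM. None of the GABA-taurine libraries reached a genotype library in FPKM for these 3 genes. Rank, the percent of all genes at or below a gene in the same library, was also lower without overlap for Ccnb1 and Birc5. For Ccnb2 the ranks overlapped, at 49.0% to 55.6% against 51.7% to 58.6%.

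The proliferation marker Mki67 (chromosome 7, 135689784 to 135716361) fell under the filter. It had 0.0459, 0.114 and 0.237 FPKM in the GABA-taurine libraries, against 1.25 FPKM in the Foxl1cre; Cxcl12 flox/flox library and 1.97 FPKM in the control library. The sets do not overlap in FPKM. The ranks of Mki67 overlapped, at 40.93% to 47.67% against 43.88% to 48.85%. Kif11, the spindle motor, also under the filter, was likewise apart at 0.167 to 0.668 FPKM, against 1.03 and 1.42 FPKM. Its rank went the other way without overlap, at 46.07% to 52.95% in the GABA-taurine libraries, against 40.82% to 43.07%. The direction for Kif11 thus depends on the measure. Cdc20, the activator of the anaphase-promoting complex, was at 1.93 to 4.27 FPKM, against 5.94 and 6.18 FPKM, which is under 2-fold on the log2(FPKM + 1) scale.

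Not all mitosis genes were lower. Ccna2, the cyclin that acts from S phase into mitosis, had 3.82, 5.5 and 6.05 FPKM in the GABA-taurine libraries, against 2.86 and 1.52 FPKM in the genotype libraries, a log2 difference of 0.96 without overlap. Its exons overlap those of Exosc9 on the other strand, and the libraries do not mark strand. Top2a, which untangles chromosomes, Cdk1, the kinase of mitosis, the kinases Plk1, Aurka and Aurkb, and the checkpoint gene Bub1 overlapped between the sets, and these 6 genes reached at most 3.29 FPKM in any library. Within a library, the mean of MCM2-7 was 24.8 to 48.7 times the median of the 13 mitosis members in the GABA-taurine libraries, against 3.69 and 3.75 times in the genotype libraries.

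Markers of the cell types that the gate removes also differed between the sets. Of the 13 leukocyte markers in the filter 12 were lower in the GABA-taurine libraries, as were 16 of 16 epithelial and 5 of 8 endothelial markers, and 0 were higher. Epithelial markers summed to 2.93 to 8.43 FPKM in the GABA-taurine libraries, with 3 to 8 of the 17 at 0, against 1093 and 125.2 FPKM with none at 0 in the genotype libraries. Endothelial markers summed to 14.3 to 21.2 FPKM, with 3 to 6 of 11 at 0, against 49.2 and 75.3 FPKM. Of the mesenchymal markers 2 of 12 were higher and 7 lower, and of the smooth muscle and pericyte markers 1 of 8 was higher and 2 lower. Of all genes in the filter 17.9% were higher and 27.9% lower. Among defining epithelial markers, Fabp2 was at 0 in all 6 GABA-taurine libraries. The part of these cells in the mitosis, Tyms or inhibitor values was not tested.

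G1 members were divided. E2f1, Cdk4 and Ccne2 were higher, Ccnd1 and Cdk6 lower, and 4 did not meet the rule. Of all genes in the filter 17.9% were higher and 27.9% lower. The median log2 difference of the 9 G1 members was 0.2. That median was 0.07 without the control library and 0.35 without the Foxl1cre; Cxcl12 flox/flox library. E2f1 had 5.21, 5.72 and 7.22 FPKM in the GABA-taurine libraries, against 1.38 and 0.718 FPKM in the genotype libraries. Cdk4, the most abundant of the 9 in the GABA-taurine libraries, had 284.2, 298.8 and 314.7 FPKM, against 115.0 and 108.5 FPKM. Ccne2, a cyclin E that starts S phase with Cdk2, had 2.43 to 3.61 FPKM, against 0.337 and 0.634 FPKM. These 3 genes had no overlap between the sets. Exons of Cdk4 and Ccne2 overlap Tspan31 and Ints8 on the other strand, and the same kind of overlap holds for Ccnd1, Ccnd2, Ccnd3, Cdk2, Cdk6, Plk1, Cdc45, Mcm7, Cdc20, Cdkn1a and Cdkn1c, whose reads cannot be told from those of their partners.

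The D-type cyclins, the first cyclins of the cycle, differed in their shares. Ccnd3 was the highest in every library, at 53.5, 58.3 and 61.2 FPKM in the GABA-taurine libraries, against 121.0 and 105.2 FPKM in the genotype libraries. Ccnd2 had 40.3, 45.3 and 48.0 FPKM, against 26.8 and 23.6 FPKM. Ccnd1 had 2.03, 2.54 and 4.07 FPKM, against 14.0 and 14.9 FPKM. Ccnd2 thus made 40.7% to 44.4% of the summed D-cyclin level in the GABA-taurine libraries, against 16.6% and 16.4% in the genotype libraries, and Ccnd1 made 1.96% to 3.59%, against 8.64% and 10.4%. All 3 genes have exons that overlap a gene on the other strand, which may enter these shares. Cdk6, the second kinase of D cyclins, was lower, at 1.33 to 3.22 FPKM against 5.95 and 8.07 FPKM. Cdk2 (13.7 to 20.1 FPKM against 15.5 and 12.6 FPKM) overlapped, and Ccne1 was under 2-fold apart.

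The inhibitors differed among themselves. Cdkn1a (chromosome 17, 29090976 to 29100727) encodes p21, a target of p53, and had 312.5, 337.0 and 387.3 FPKM in the GABA-taurine libraries, against 101.5 FPKM in the Foxl1cre; Cxcl12 flox/flox library and 82.1 FPKM in the control library. It made 97.3% to 98.2% of the summed level of the 6 inhibitors in the GABA-taurine libraries, against 67.0% and 62.8%. The other members of its family lay far lower there. Cdkn1b, which encodes p27, had 0.145, 0.198 and 0.282 FPKM, against 4.18 and 5.51 FPKM. Cdkn1c, the imprinted p57 gene, had 0.852, 1.23 and 2.04 FPKM, against 19.8 and 20.9 FPKM. Cdkn2c, the p18 inhibitor of Cdk4 and Cdk6, had 1.35, 1.92 and 3.25 FPKM, against 23.3 and 21.3 FPKM. The GABA-taurine and genotype values of these 4 genes did not overlap. Of the 5 inhibitors in the filter 1 was higher and 3 lower, where 17.9% of all genes were higher and 27.9% lower. Cdkn1b passed the filter only through the genotype libraries, where it is high. Cdkn2b, the p15 gene, was at 3.18 to 5.52 FPKM, against 2.55 and 1.01 FPKM, under 2-fold on the log2(FPKM + 1) scale. Cdkn2a, whose transcripts encode p16 and the p53 activator ARF and are not separated here, was listed at 0 in 5 GABA-taurine libraries and in the control library, and reached 0.0713 FPKM in replicate 2 of 6 h and 0.249 FPKM in the Foxl1cre; Cxcl12 flox/flox library.

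**Figure D2:**
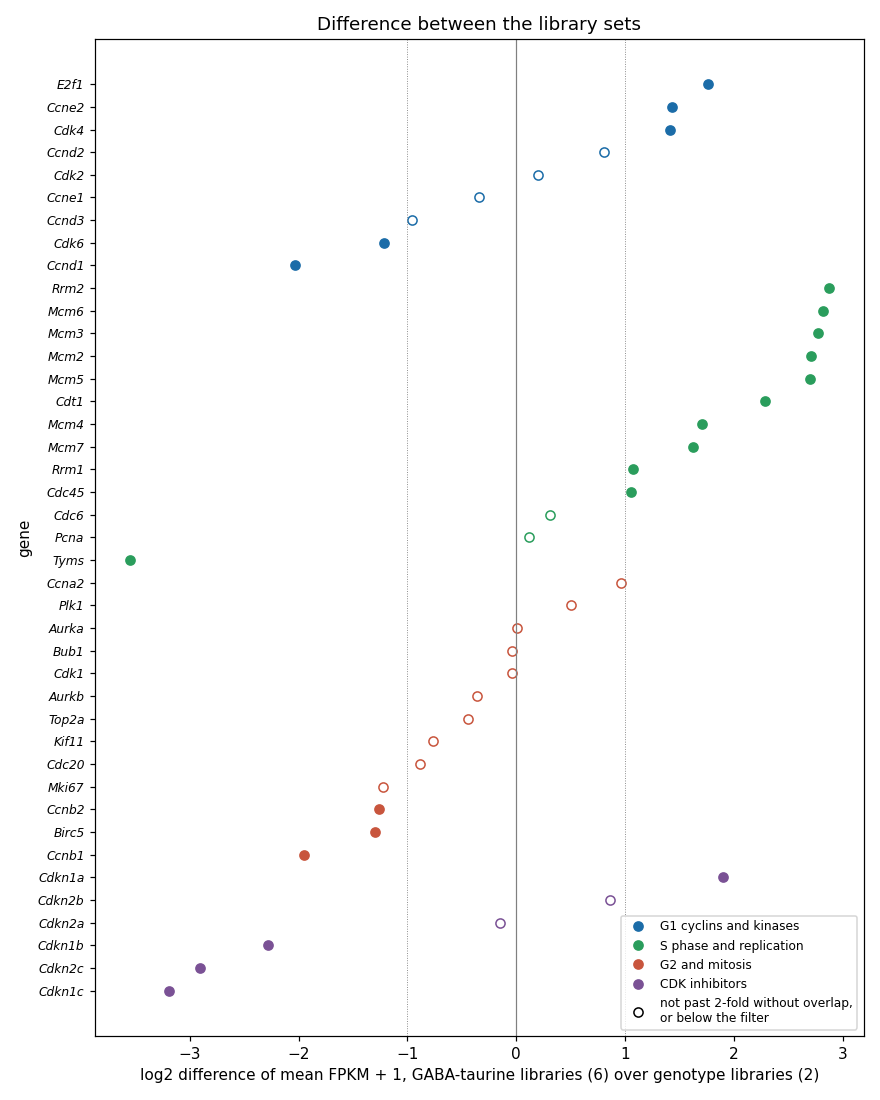
Log2 difference of mean FPKM + 1 between the 6 GABA-taurine and the 2 genotype libraries for each member, coloured by role, with filled points where the difference was at least 2-fold without overlap (dotted lines: 2-fold). The 10 filled S phase points lie to the right, up to 2.87 for Rrm2, and Tyms lies at -3.55, while no filled point of mitosis lies to the right.

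Further genes of the same roles were listed beside the members. Over all genes in the filter 17.9% were higher and 27.9% lower in the GABA-taurine libraries. Of 45 further replication genes in the filter, 22 were higher and 0 lower, with a median log2 difference of 0.99. They included Orc2, Orc4, Orc5 and Orc6 of the origin recognition complex, Gins2 and Mcm10 of the active helicase, the polymerase subunits Pold1, Pold2 and Pole2, and Uhrf1, which keeps DNA methylation through replication. Of 36 further mitosis genes in the filter 7 were higher and 4 lower, with a median of 0.18. Over all 56 listed, without the filter, that median was -0.16. The difference from the 9 mitosis members was not tested. Cenpa, the centromere histone, was lower at 0.151 to 0.748 FPKM against 3.57 and 2.88 FPKM, as was Spc24 of the kinetochore at 0.219 to 1.58 FPKM against 11.3 and 16.7 FPKM. Of 18 regulators of the E2F pathway 5 were higher and 2 lower. E2f4, a repressing E2F of quiescent cells, was higher at 68.4 to 82.5 FPKM against 17.7 and 14.2 FPKM, and its pocket protein partner Rbl2 lower at 3.31 to 4.34 FPKM against 15.7 and 13.9 FPKM. These examples were chosen after their values were seen.

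Among 19 p53 targets and growth arrest genes 6 were higher and 5 lower, where 17.9% of all genes were higher and 27.9% lower. The higher ones were Mdm2, Ccng1, Sesn2, Bax, Phlda3 and Aen, all known targets of p53, with log2 differences from 2.11 to 2.94. Mdm2, the ligase that degrades p53, ran from 138.9 to 162.8 FPKM in the GABA-taurine libraries, against 27.5 and 22.8 FPKM in the genotype libraries. The lower ones were Ccng2, Gadd45a, Btg2, Sesn1 and Cdkn2d. Btg2, an antiproliferative gene induced by p53 and by growth factors, ran from 66.5 to 77.5 FPKM against 522.9 and 461.2 FPKM. Known p53 targets were thus on both sides.

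Next, the libraries at 6 h of treatment were set against those at 0 h. The test was limma on log2(FPKM + 1) over the 10910 genes averaging 1 FPKM or more, with Benjamini-Hochberg adjustment over all of them and a threshold of 0.05. Of the 41 members 34 passed the filter, and 0 of them passed the adjusted threshold, where 0.55% of all genes did. Of all genes 0.238% were called higher and 0.312% lower at 6 h. The count stayed at 0 in all 12 other fits. At an unadjusted limma p under 0.05 there were 5 members, all lower at 6 h, where 9.38% of all genes met that value in either direction and 4.93% did with a lower level. No label states that the replicates are separate cultures or mice, and the p-values then describe the spread of these libraries alone, part of which may be technical.

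S phase members stood close between the times. Their median log2 difference was -0.10, with 11 of 13 below 0, where the median of all genes was 0.00. All 6 subunits of MCM2-7 were below 0 in log2 difference, from -0.19 for Mcm2 to -0.04 for Mcm6, and their 95% intervals lay within -0.33 and 0.11. Mcm2 had 36.0, 35.2 and 36.5 FPKM at 6 h, against 41.4, 40.3 and 41.7 FPKM at 0 h (log2 difference -0.19, SE 0.07, limma adjusted p = 0.347). Rrm2 had 38.2, 34.6 and 35.4 FPKM at 6 h, against 39.3, 41.5 and 48.6 FPKM at 0 h (-0.25, SE 0.09, limma adjusted p = 0.347). The 3 values at 6 h lay below the 3 at 0 h for both genes, and an exact permutation test gave p = 0.1, the smallest possible with 3 against 3. Cdt1 had 16.8, 14.8 and 15.6 FPKM at 6 h, against 21.4, 19.9 and 16.6 FPKM at 0 h (-0.27, SE 0.10, limma adjusted p = 0.426), with an overlap between the times.

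Among G1 and mitosis members 0 passed the threshold either. The median log2 difference was -0.056 for 9 G1 members and -0.17 for 8 mitosis members. Without replicate 3 of 6 h the mitosis median was -0.39, and without replicate 2 of 0 h it was 0.023. Cdk2, the kinase partner of cyclins E and A, had 15.5, 13.7 and 15.3 FPKM at 6 h, against 16.2, 17.3 and 20.1 FPKM at 0 h (log2 difference -0.25, SE 0.10, limma adjusted p = 0.47). Cdc20 had 1.97, 2.52 and 1.93 FPKM at 6 h, against 2.66, 4.27 and 3.63 FPKM at 0 h (-0.51, SE 0.17, limma adjusted p = 0.344), the smallest p among the members. Ccne2 had 3.61, 3.15 and 3.47 FPKM at 6 h, against 2.65, 2.74 and 2.43 FPKM at 0 h (0.29, SE 0.14, limma adjusted p = 0.579). Both Cdk2 and Cdc20 were lower at 6 h in every library and Ccne2 higher. Without overlap between the times, 6 tested members were lower (Cdk2, Mcm2, Mcm7, Pcna, Rrm2 and Cdc20), where 8.01% of all genes were, and 1 was higher (Ccne2), where 7.25% were.

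The abundant members were nearly flat. Cdk4 averaged 293.6 ± 10.5 FPKM at 6 h and 304.1 ± 9.43 FPKM at 0 h (SD, n = 3 each), with a 95% interval of the log2 difference from -0.16 to 0.06. Ccnd3 averaged 58.1 ± 4.05 FPKM at 6 h and 57.7 ± 3.1 FPKM at 0 h, Ccnd2 43.2 ± 2.78 FPKM and 46.2 ± 1.65 FPKM, and Pcna 77.4 ± 2.93 FPKM and 83.5 ± 3.46 FPKM. Mcm6 averaged 57.0 ± 3.25 FPKM at 6 h and 58.6 ± 2.48 FPKM at 0 h. Differences of these genes were within 0.11 on the log2 scale.

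Cdkn1a had 312.5, 344.9 and 329.1 FPKM at 6 h, against 387.3, 382.1 and 317.6 FPKM at 0 h (log2 difference -0.13, SE 0.07, limma adjusted p = 0.617), with replicate 3 of 0 h among the 6 h values. The 4 inhibitors tested had a median log2 difference of 0.15, which was 0.032 without the filter and -0.13 at a minimum of 5 FPKM, where 1 inhibitor was left. Cdkn2c and Cdkn1c averaged 2.48 ± 0.83 and 1.56 ± 0.437 FPKM at 6 h, and 1.73 ± 0.348 and 1.10 ± 0.219 FPKM at 0 h, with limma adjusted p of 0.664 and 0.699. At low level the intervals were wide: those of Ccnb1 and Birc5 ran from -0.66 to 0.47 and from -0.90 to 0.23. The 7 members under the filter were Mki67, Ccnb2, Plk1, Bub1, Kif11, Cdkn1b and Cdkn2a, each with a mean under 1 FPKM over the 6 libraries. Mki67 had 0.237, 0.142 and 0.0475 FPKM at 6 h, against 0.137, 0.0915 and 0.0459 FPKM at 0 h.

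**Figure D3:**
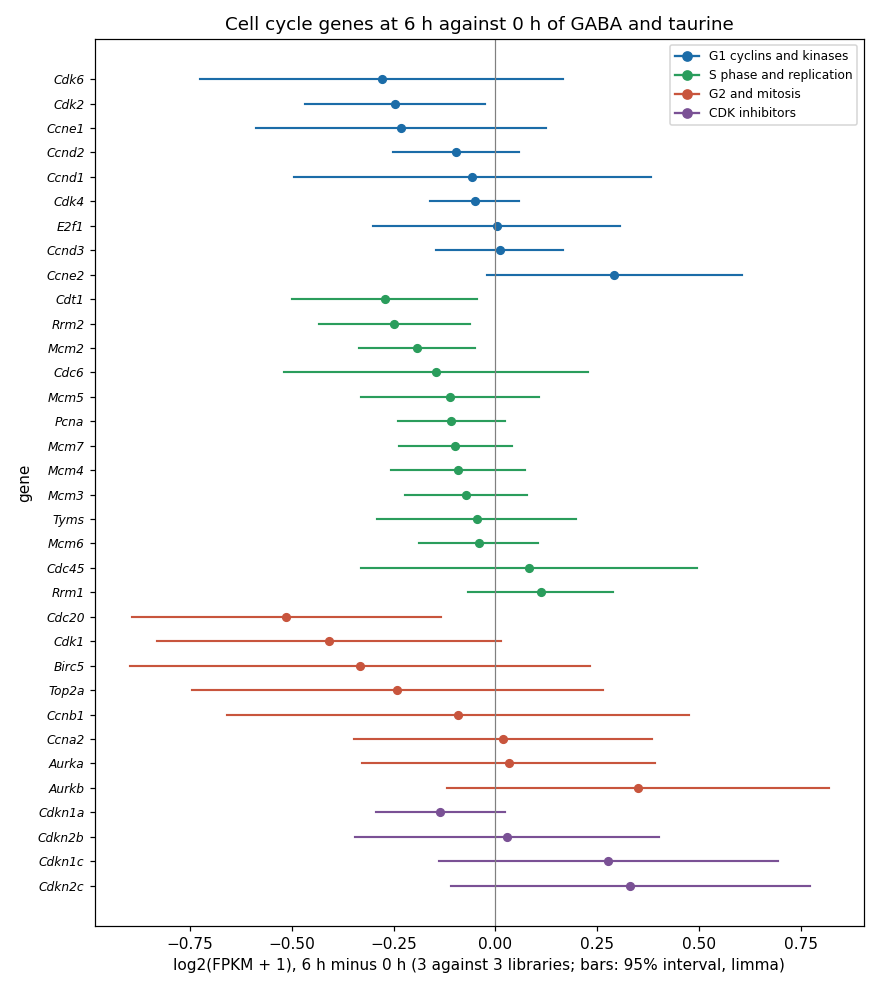
Log2 difference at 6 h minus 0 h for the 34 tested members, with points for the limma estimate and bars for its 95% interval, coloured by role. The S phase points lie near 0, with a median of -0.10, and the widest intervals are those of the mitosis genes Ccnb1 and Birc5.

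The further lists gave no call either. Of 45 replication, 30 mitosis, 18 E2F pathway and 19 growth arrest genes tested with limma, 0 passed the adjusted threshold in either direction. At an unadjusted limma p under 0.05 there were 3, 3, 2 and 3 of them, where 9.38% of all genes met that value. Zwint, a kinetochore gene, came nearest, with 161.9, 164.2 and 161.7 FPKM at 6 h, against 181.9, 192.0 and 194.0 FPKM at 0 h (log2 difference -0.22, limma adjusted p = 0.0985). Tpx2 of the spindle had a limma adjusted p of 0.439, the polymerase and primase genes Pole2 and Prim2 0.343 and 0.423, the pocket protein gene Rb1 0.321 and Ccnh 0.498. Phlda3 and Ccng2 had 0.23 and 0.314. Among the marker lists 1 gene passed: the keratin Krt8 rose to 2.12, 1.75 and 2.31 FPKM at 6 h, against 0.271, 0.729 and 0.188 FPKM at 0 h (log2 difference 1.15, limma adjusted p = 0.0319). Krt8 passed in 3 of 11 other limma fits that held it, with adjusted p from 0.0259 to 0.244. In the same comparison the other tested epithelial marker, Lgals4, had a limma adjusted p of 0.884, and the 4 leukocyte markers tested had positive log2 differences up to 0.77 with 0 past the threshold. Of 10 mesenchymal markers tested 9 had a higher mean log2 level at 6 h. Of these markers 6 were higher without overlap between the times, where 7.25% of all genes were. An unadjusted limma p under 0.05 was met by 6, where 9.38% of all genes met it in either direction. The adjusted threshold was passed by 0, the lowest limma adjusted p being 0.0961 for Dcn, a proteoglycan of the matrix. The part of these markers in the member values was not tested.

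The last comparison concerns deletion of Cxcl12 by Foxl1cre. It has 1 library per genotype, so no difference has a replicate check and no test was run. Cxcl12 stood at 739.7 FPKM in the Foxl1cre; Cxcl12 flox/flox library, against 1298 FPKM in the control library. Of the 41 members 37 averaged 1 FPKM or more over the pair, of which 1 was at least 2-fold higher in the Foxl1cre; Cxcl12 flox/flox library and 0 at least 2-fold lower. Over all 14949 genes 1.36% were as far higher and 2.22% as far lower.

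The member past 2-fold was Mcm6, with 10.4 FPKM in the Foxl1cre; Cxcl12 flox/flox library, against 4.27 FPKM in the control library. The other helicase subunits were closer together, with log2 differences from -0.12 for Mcm4 to 0.32 for Mcm2, so Mcm6 stood apart from its complex. The median log2 difference of the S phase members was 0.01, where that of all genes was 0.04. Tyms stood at 81.0 against 103.8 FPKM, Pcna at 72.4 against 75.5 FPKM and Rrm2 at 4.58 against 4.53 FPKM.

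Of the mitosis members 7 of 11 were below the control library, with a median log2 difference of -0.25, where 6723 of all 14949 genes were below it. The 37 further mitosis genes were divided, with 18 above and 19 below. Mki67 stood at 1.25 FPKM in the Foxl1cre; Cxcl12 flox/flox library, against 1.97 FPKM in the control library, Ccnb1 at 6.54 against 9.42 FPKM and Birc5 at 6.71 against 8.46 FPKM. Aurka, the spindle pole kinase, went the other way at 3.29 against 1.29 FPKM, as did Ccna2 at 2.86 against 1.52 FPKM. Aurka's log2 difference of 0.90 was the largest of this role, and it was 1.28 with a pseudocount of 0.1. The number of reads behind such levels is unknown.

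In their medians, G1 genes and inhibitors were near the control values, while single genes at low level lay further apart. The median log2 difference was 0.17 for 8 G1 members and 0.12 for 5 inhibitors. E2f1 stood at 1.38 FPKM in the Foxl1cre; Cxcl12 flox/flox library, against 0.718 FPKM in the control library, and Cdkn2b at 2.55 against 1.01 FPKM, the furthest of their roles. Without the added 1, Cdkn2b and the mitosis member Aurka stood at 252.8% and 254.0% of the control library, above Mcm6 at 243.6%. The place of Cdkn2b and Aurka under 2-fold thus depends on the pseudocount. Cdk4 (115.0 against 108.5 FPKM), Ccnd3 (121.0 against 105.2 FPKM), Cdkn1a (101.5 against 82.1 FPKM), Cdkn1c (19.8 against 20.9 FPKM) and Cdkn2c (23.3 against 21.3 FPKM) differed by at most 0.30 on the log2 scale.

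**Figure D4:**
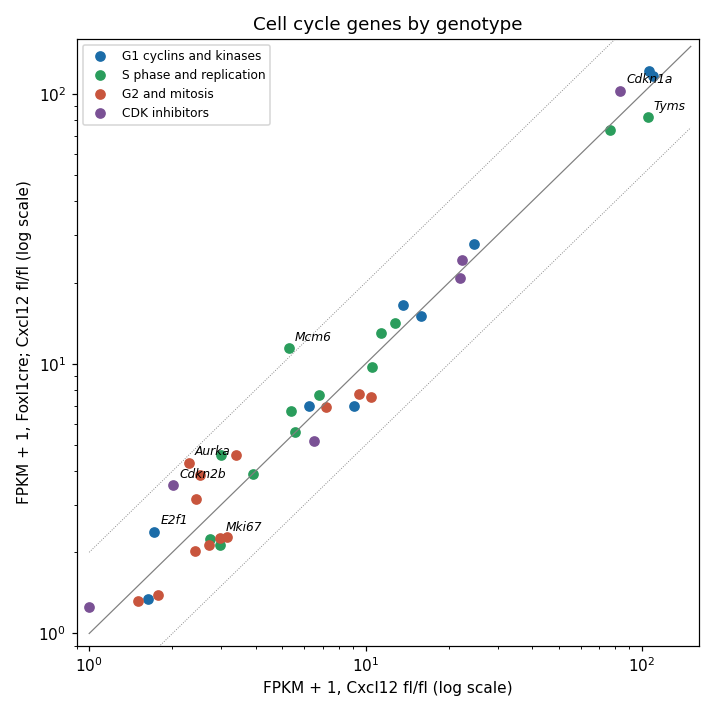
FPKM + 1 of the 41 members in the Foxl1cre; Cxcl12 flox/flox library (vertical, log scale) against the Cxcl12 flox/flox control library (horizontal, log scale), coloured by role, with the diagonal and dotted lines at 2-fold. Most points lie near the diagonal, and only Mcm6 (10.4 against 4.27 FPKM) lies past a dotted line.

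Of the further lists, 0 genes were at least 2-fold higher and 1 lower of 40 for replication, 1 and 1 of 37 for mitosis, and 0 and 0 of 17 for the E2F pathway and of 19 for growth arrest. Gins1 of the helicase stood at 0.724 FPKM in the Foxl1cre; Cxcl12 flox/flox library, against 3.26 FPKM in the control library, and Orc1 at 0.791 against 1.91 FPKM. Cdca3, a trigger of mitotic entry, stood at 3.1 against 0.622 FPKM, and Cdkn3, a phosphatase acting on cyclin-dependent kinases, at 0.566 against 2.48 FPKM. Lin37 (9.95 against 15.2 FPKM), E2f3 (1.23 against 0.68 FPKM), Plk3 (26.9 against 17.8 FPKM) and Sesn2 (8.8 against 6.0 FPKM) were the furthest of their lists and under 2-fold. All 16 epithelial markers in the filter were higher in the Foxl1cre; Cxcl12 flox/flox library, with Phgr1 at 46.8 FPKM there, against 0.604 FPKM in the control library, and Car1 at 614.0 FPKM, against 57.2 FPKM. Of the leukocyte markers 12 of 14 were higher, among them Adgre1 (3.44 FPKM in the Foxl1cre; Cxcl12 flox/flox library and 1.24 FPKM in the control), and 6 of 9 endothelial markers were lower. The part of these cell types in the member values was not tested.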

How the data were processed

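RNA sequencing of 8 libraries was used. For each library, per the file headers, the authors deposited FPKM values by gene symbol. The submitters' processing notes list Cuffdiff 2.2.1, SAMtools 0.1.18, Bowtie2 2.2.8 and TopHat2 2.1.1, without their roles, and the genome mm10. The kits named in the labels' protocols (SMART-Seq HT, Nextera XT) do not mark strand, and exons of 14 members overlap a gene on the other strand. The sources used here do not give the annotation, the handling of multi-mapped reads or any scaling.

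From the deposited FPKM, log2(FPKM + 1) of the time comparison was fitted on 3 against 3 libraries in R 4.3.3 (limma 3.58.1, intensity trend), and checked on simulated data. Changes of genes at low FPKM are understated on this scale. The members, lists and tests were chosen with earlier results of these data known. Named genes were those with the smallest time p, the highest level of each role, the furthest genotype difference, and, of further lists, the 2 smallest time p and 2 furthest genotype differences. One gene that this rule names is not reported here. The remaining members, and the printed promoters, were named with values known. Replicate numbers did not pair the libraries. Single values were also compared by an exact two-sided permutation test. Alternatives were a pseudocount of 0.1, no filter, a mean of 5 FPKM, no trend, a common total per library, a replicate block and leaving out each library. Coordinates are from GENCODE M21 (GRCm38, the same assembly as mm10).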

Additional observations from a re-analysis of the deposited data

How the results depend on the processing

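With other settings 0 of the tested members passed the adjusted limma threshold at 6 h. The count of all genes called there, 60 (26 higher, 34 lower), was 0 (0 and 0) without the filter and without the intensity trend, 85 (41 and 44) at a minimum mean of 5 FPKM, 23 (14 and 9) with the replicate block, and from 2 without replicate 2 of 6 h to 115 without replicate 3 of 0 h (0 to 47 higher, 2 to 68 lower) with 1 library left out. Same-numbered libraries correlated at -0.044, 0.013 and -0.028 in their deviations from the group means, so the numbers pair nothing. The medians of the roles ran from -0.14 to -0.026 (G1), -0.12 to -0.057 (S phase), -0.39 to 0.023 (mitosis) and 0.087 to 0.18 (inhibitors) with 1 library left out, and the inhibitors stood at 0.032 without the filter and -0.13 at 5 FPKM. With 1 library left out the sign of 10 uncalled members turned, over -0.22 to 0.15 for Ccnd1, -0.045 to 0.29 for Cdc45, -0.42 to 0.12 for Ccnb1, -0.023 to 0.068 for Ccnd3, -0.071 to 0.13 for E2f1, -0.075 to 0.20 for Ccna2, -0.060 to 0.14 for Aurka, -0.16 to 0.17 for Cdkn2b, -0.39 to 0.011 for Top2a and -0.55 to 0.027 for Birc5. Between the genotypes 3 members were 2-fold higher with a pseudocount of 0.1 and 2 after rescaling to a common total, and the S phase median was 0.16 at 5 FPKM. Between the library sets the counts were 13 to 15 higher and 9 to 10 lower with 1 library left out, 11 higher and 5 lower at 5 FPKM, and 14 higher and 13 lower after rescaling, against 14 and 9. The medians were -0.72 (mitosis) and -3.34 (inhibitors) with a pseudocount of 0.1, and 2.28 (S phase), -1.30 (mitosis) and -2.91 (inhibitors) at 5 FPKM. The inhibitors stood at -1.22 without the filter and -2.92 after rescaling, and with 1 library left out G1 ran from 0.070 to 0.35, S phase from 1.68 to 1.77, mitosis from -0.74 to -0.35 and inhibitors from -2.44 to -2.11. The cause of these shifts was not tested. Rescaling moved the median of all genes between the sets from -0.10 to -0.20 over the same genes. Read numbers are unknown, so no counting error can be given for genes at low FPKM.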

Other observations

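A few genes listed under mitosis lay far on the side of the S phase genes, and were noticed after their values were seen. Ccnf, an F-box protein of G2 that marks Rrm2 for degradation, ran from 19.3 to 25.2 FPKM in the GABA-taurine libraries, against 0.657 and 1.03 FPKM in the genotype libraries. Gtse1, a G2 gene that restrains p53, ran from 10.4 to 13.4 FPKM, against 0.51 and 0.639 FPKM. Zwint ran from 161.7 to 194.0 FPKM, against 30.4 and 28.0 FPKM. Aspm, a spindle pole gene, lay on the other side at 0 to 0.0607 FPKM, against 1.10 and 0.923 FPKM.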
